A study of Mus musculus with 36 samples.

Results

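The thumb of the mouse embryo, digit I of the forelimb, was compared with digits III and V of the same hand by ATAC-seq, an assay in which a transposase cuts accessible DNA so that open chromatin can be mapped. The comparison took 18 of the 36 libraries of the series, in 6 of its 12 groups, and each group of 3 libraries was represented by 1 list of open-chromatin peaks called on pooled libraries. The 6 groups were the phalanges of hand digit I, III and V and the metacarpal of digit I, III and V. All were taken from FVB/NJ embryos at stage E15.5, with no treatment named, and are labelled as chondrocytes. Tissue was obtained by microdissection, and no cell sort is described. A library pooled elements of 3 to 5 embryos of 1 litter, right and left sides together, or 6 to 10 limbs. The phalanges of digit I held the proximal and distal bones, while those of digits III and V also held the intermediate bone, which the thumb does not have. Element composition therefore differed between the digits in the phalanges and cannot be told apart from digit there. The 6 matching foot lists, which the comparison did not use to choose regions, served as a separate measure. With 1 list per group there is no replicate error, and the spread given is between lists.

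Overlapping peaks of the 6 forelimb lists (1 bp or more) formed 59500 union regions, each counted as called in every list with a peak there. Regions called only in digit I were called in both digit I lists and in 0 of the 4 others, and 257 regions (0.432%) met this rule. Regions missing only from digit I were called in all 4 lists of digits III and V and in neither digit I list, and there were 690 (1.16%). Because longer lists call more regions, the same rules were also applied to the first 36194 peaks of each list, the length of the shortest. The 49084 union regions of these equal lists held 622 called only in digit I (1.27%) and 363 missing only from it (0.740%). In pooled tissue, fewer cells with an open region and less open chromatin per cell cannot be told apart.

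In the embryonic limb the digits differ by their place along the anterior-posterior axis, which is patterned by Sonic hedgehog signalling from the posterior margin and by the Gli3 repressor. Digit I is the most anterior digit, the one known to depend least on Sonic hedgehog, and it bears fewer phalanges than the other digits. Its metacarpal is known to carry its growth plate at the proximal end, as a phalanx does, whereas the other metacarpals carry it at the distal end. At this stage the digit skeleton is cartilage flanked by perichondrium, with joints forming between the elements.

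Most promoters were called in every digit. Of 21262 RefSeq promoters (250 bases before to 50 after a start site) of 17491 genes, 12923 (60.8%) were touched by a peak in all 6 lists, and the share per list ran from 62.2% (metacarpal V) to 65.1% (metacarpal III). Just 5 promoters were fully covered in both digit I lists and untouched in the other 4, those of Ctla4, Gm50595, Mvp, Itgb7 and Hpse2, and 22 met the reverse rule. The 4 printed here, from RefSeq on GRCm38.p6 and 5′ to 3′, are 2 of each kind, shown because their start sites separated the thumb from the other fingers; they were picked after the calls were seen. Hpse2 encodes a heparanase-like protein without heparanase activity and Mvp the major vault protein. Myf5, a transcription factor of muscle precursors, and Pde1a, a cyclic nucleotide phosphodiesterase, were missing from the thumb. Capitals mark short motifs on either strand. One is TATAAA, a core promoter element. Another is CCAAT, known for binding NF-Y. The others are GGGCGG, known for binding SP1, and the E-box CAGCTG, of the kind bound by muscle factors.
Hpse2, chr19:43388306-43388605, minus strand: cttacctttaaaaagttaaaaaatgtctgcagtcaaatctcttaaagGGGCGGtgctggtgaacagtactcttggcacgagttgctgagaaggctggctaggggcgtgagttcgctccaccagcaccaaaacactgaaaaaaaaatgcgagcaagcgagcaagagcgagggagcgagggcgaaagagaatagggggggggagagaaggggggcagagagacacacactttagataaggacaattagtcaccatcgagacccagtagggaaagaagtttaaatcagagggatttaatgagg
Mvp, chr7:127014545-127014844, minus strand: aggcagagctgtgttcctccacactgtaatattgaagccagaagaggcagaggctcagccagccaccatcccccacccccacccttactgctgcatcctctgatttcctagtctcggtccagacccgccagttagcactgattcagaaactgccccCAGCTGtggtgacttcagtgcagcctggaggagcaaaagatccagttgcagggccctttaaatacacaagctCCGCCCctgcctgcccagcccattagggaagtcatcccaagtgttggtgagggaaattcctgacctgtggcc
Myf5, chr10:107486085-107486384, minus strand: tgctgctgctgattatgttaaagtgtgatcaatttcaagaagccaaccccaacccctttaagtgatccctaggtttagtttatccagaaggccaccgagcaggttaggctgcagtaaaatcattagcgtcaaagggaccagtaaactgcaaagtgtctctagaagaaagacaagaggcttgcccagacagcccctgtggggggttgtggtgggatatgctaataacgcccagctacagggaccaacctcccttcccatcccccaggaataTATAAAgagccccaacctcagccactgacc
Pde1a, chr2:80038853-80039152, minus strand: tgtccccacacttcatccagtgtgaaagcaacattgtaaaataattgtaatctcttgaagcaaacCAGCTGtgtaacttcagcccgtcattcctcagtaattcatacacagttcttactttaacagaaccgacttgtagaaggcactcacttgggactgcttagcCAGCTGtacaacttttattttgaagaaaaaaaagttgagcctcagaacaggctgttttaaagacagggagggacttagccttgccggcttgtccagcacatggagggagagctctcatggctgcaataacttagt

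Among all promoters, 12.6% held TATAAA and 38.2% held CCAAT, while 46.2% held GGGCGG and 15.6% held CAGCTG. The Myf5 promoter held TATAAA 1 time and no CAGCTG, and the Pde1a promoter held CAGCTG 2 times. The Mvp promoter held CAGCTG and GGGCGG 1 time each, and the Hpse2 promoter GGGCGG alone. All 6 foot lists called the Myf5 promoter and 5 of 6 the Pde1a promoter, and both great toe lists called each of them. The Mvp promoter was called in foot phalanges III and V and metatarsal I. That of Hpse2 was called in foot phalanges III and metatarsals I and V, so neither was particular to the great toe. At equal length the Myf5 region was called in phalanges V and metacarpal III alone, and it no longer met the rule. Among the 22 promoters missing from the thumb, those of 4930467E23Rik, Gm15319 and Gm21119 on chromosome 8 had 1 identical sequence, so their reads cannot be assigned to 1 copy and these are uncertain.

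The 2 thumb lists ended at higher significance than the others. The lists held 38947 peaks (phalanges I), 44289 (phalanges III), 36789 (phalanges V), 36194 (metacarpal I), 53276 (metacarpal III) and 38250 (metacarpal V). The thumb lists ended at a −log10 p of 48.5 and 49.6, above the 23.0 to 36.4 of the other 4 (49.0 ± 0.836, SD, n = 2 lists, against 30.5 ± 6.26, n = 4, exact permutation p = 0.111). Their peaks were also wider, with a median of 2164 ± 84.1 bp against 1832 ± 109 bp (exact permutation p = 0.111). The thumb lists held 37 and 13 peaks on chromosome Y, against 62 to 117 in the others (exact permutation p = 0.111), but at equal length 29 and 13 against 26 to 94, where the groups overlapped (exact permutation p = 0.222). Digit labels were swapped within element, which gives 9 labellings, so 0.111 is the smallest two-sided p that any such test here can give and none can pass 0.05. Over the 16 list measures tested, the smallest adjusted p (Benjamini-Hochberg) was 0.395. The defining cartilage genes had regions called in every list: 2 of 3 at Col2a1, 5 of 10 at Acan and 4 of 22 at Sox9 were called in all 6. Ucma, another gene of the cartilage list, had no called region in phalanges I, III or V or in metacarpal V.

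**Figure D1:**
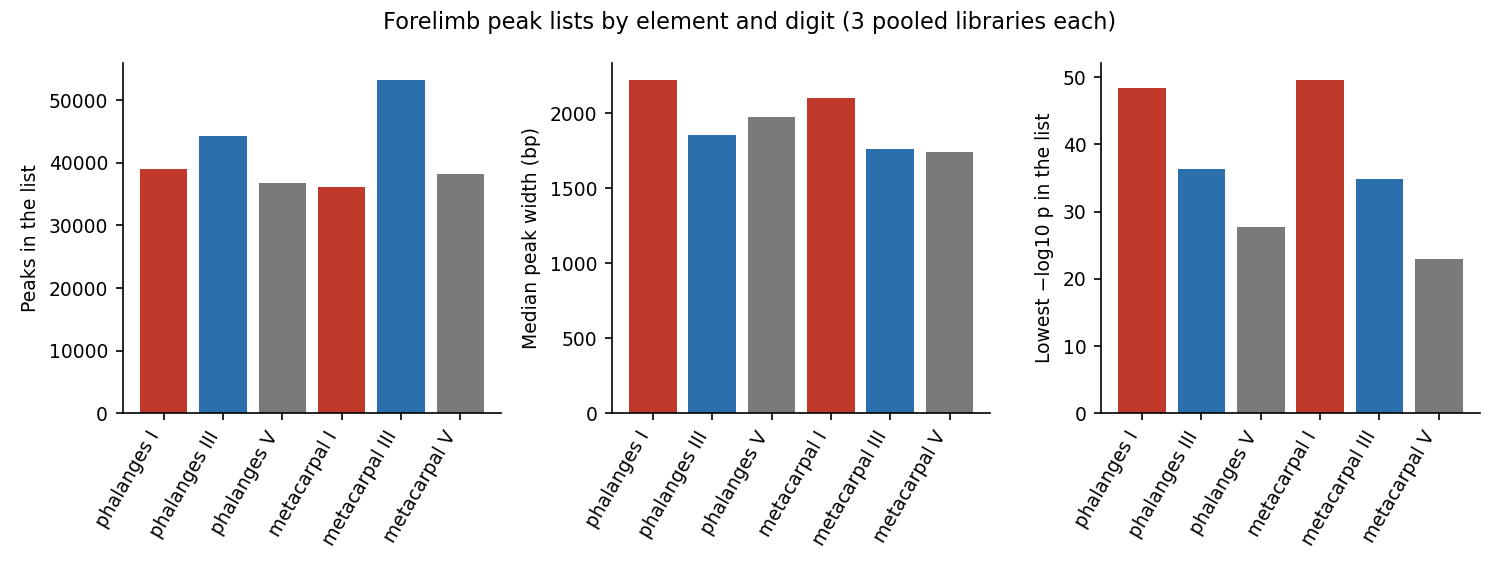
Number of peaks, median peak width in bp and lowest −log10 p of each of the 6 forelimb lists (1 bar per list, coloured by digit). The thumb lists, in red, are not the longest but have the widest peaks, 2223 and 2104 bp, and the highest end points, 48.5 and 49.6.

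The median −log10 p of the 690 missing regions was 62.5 in phalanges III and 77.1 in metacarpal III, but 36.2 in phalanges V and 33.3 in metacarpal V, under the level at which the thumb lists ended. In 17 of the 690 regions the peaks of all 4 lists reached 49.6, in 417 those of both digit III lists did, and in 56 none did. When all 6 lists were held to that common end point, an alternative chosen after seeing the data, 19 regions (0.0379%) were missing only from digit I and 888 (1.77%) were called only in it. Metacarpal I, whose own end point this is, kept all its peaks, and the digit V lists fell to 24792 and 22441 peaks. The −log10 p of a peak depends on the depth of its list, which is unknown, so a region missing from the thumb lists is one without a peak above their end point, not one shown to be closed.

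At equal length, 622 regions were called only in digit I, against 277 only in digit III and 256 only in digit V, and 363 were missing only from digit I, against 117 and 157. With all lines 1653 regions were called only in digit III, which had the longest lists, 257 only in digit I and 69 only in digit V. Of the 622 equal-length regions, 430 had a peak further down the list of another digit, 356 of them in metacarpal III. The regions that met the rule in both settings numbered 192 called only in digit I, 204 only in digit III and 47 only in digit V, and 288, 2 and 112 missing from them, so digit I did not lead in the former. No test is given for these counts, since the rule fixes them.

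**Figure D2:**
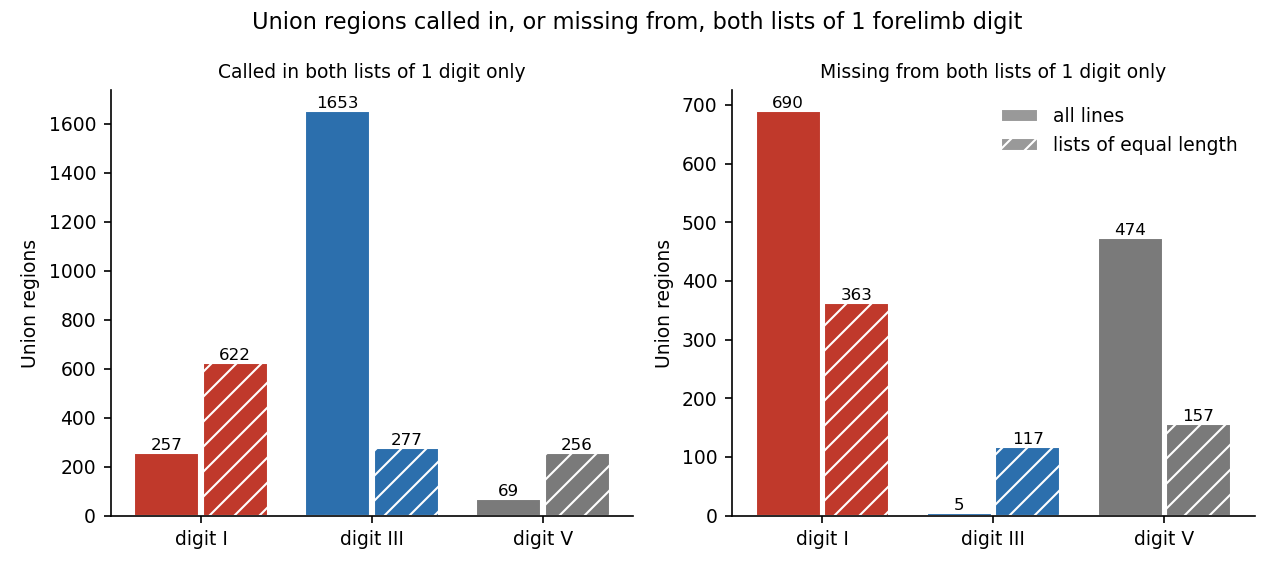
Union regions called only in, or missing only from, both lists of 1 forelimb digit, counted with all lines (plain bars) and with lists of 36194 peaks (hatched bars). Digit I has the highest hatched bar in both panels, 622 and 363, while the 1653 regions of digit III in the plain bars shrink to 277.

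Lying just outside the rule were 495 regions called in both digit I lists and in 1 of the 4 others, and 328 of these were called in metacarpal III. Without that list, 588 regions would have been called only in digit I. A further 2096 regions were called in 1 digit I list and in 0 of the others, and 1932 were called in all 4 others and in 1 digit I list. The members themselves were weak peaks. On a scale from 0 for the last peak of a list to 100 for the first, the lower of a region's percentiles among the lists that called it had a median of 8.02 for regions called only in digit I and 9.85 for those missing only from it, with highest values of 50.9 and 48.4.

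The Jaccard index is the share of regions called in either of a pair of lists that are called in both. At equal length it was 0.797 between phalanges III and V, but 0.754 and 0.746 between those of the thumb and digits III and V. In the metacarpals it was 0.785 between III and V, and 0.745 and 0.729 with the thumb. With all lines the metacarpal order differed, at 0.669 between III and V, 0.637 between I and III and 0.726 between I and V.

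The genes Dkk3, Tbx5, Wif1 and Wnt4 had more called regions in both thumb lists than in any other list, with all lines and at equal length alike, and 3 of the 4 are among the 32 genes of the Wnt list. In these 2 settings together 4 of 290 list genes (1.38%) had more and 6 (2.07%) had fewer, where 0.495% and 1.38% of all genes did. Each region was given to the coding gene whose end lay nearest, within 1 Mb. The 308 genes of 18 lists were examined (patterning, growth plate, joint and markers of other cell types), and 290 of them had a region. With all lines, 4 of 290 list genes (1.38%) had more called regions in both thumb lists than in all 4 others, where 0.618% of the 16176 genes with a region did, and 11 (3.79%) had fewer, where 3.24% of all genes did. At equal length 27 of 287 (9.41%) had more, where 2.70% of all genes did, and 6 (2.09%) had fewer, where 1.88% did. The lower shares lay near the background. List genes had a median of 5 regions against 2 for all genes, and 15.9% of list genes and 39.2% of all genes had 1 region.

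Wif1, a secreted inhibitor that binds Wnt ligands, had 8 called regions in the phalanges and 7 in the metacarpal of the thumb. It had 5 in phalanges III, 5 in phalanges V, 6 in metacarpal III and 3 in metacarpal V. All 8 of its regions were called in the phalanges of the thumb, and the groups did not overlap. The region at chr10:121031036-121035740, 0.616 kb from a gene end, was called in all 6 lists. The one at chr10:121097543-121100491, inside Wif1 and 1.63 kb from a gene end, was called in both thumb lists and no other, and its neighbour at chr10:121095924-121097159 in both thumb lists and metacarpal III.

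Dkk3, a secreted glycoprotein of the Dickkopf family, had 10 and 8 called regions in the thumb phalanges and metacarpal. The other lists had 6 (phalanges III), 5 (phalanges V), 7 (metacarpal III) and 4 (metacarpal V). Its region called only in digit I, chr7:112153996-112155784, lay inside the gene 4.59 kb from an end. Wnt4, a Wnt ligand of forming joints, had 7 and 6 called regions in the thumb against 4, 2, 4 and 5 in phalanges III, phalanges V, metacarpal III and metacarpal V. No region of Wnt4 was called in both thumb lists and no other, and 4 of its 9 regions were called in 1 thumb list and no other, 3 of them in the phalanges. With regions counted over the gene body and 10 kb flanks instead, Wnt4 no longer separated the groups.

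Tbx5, the T-box transcription factor of the forelimb, in which mutations affect the thumb in human Holt-Oram syndrome, had 11 called regions in the thumb phalanges and 8 in the thumb metacarpal. Phalanges III and V had 6 and 5, and metacarpals III and V had 6 and 5. The thumb lists were thus the highest within each element. A region inside Tbx5, chr5:119847388-119849178, 36.9 kb from a gene end, was called in both thumb lists and no other with all lines, and 4 others in the thumb phalanges alone. The 4 genes stayed higher in both thumb lists than in all others with peaks held to the common end point, where Tbx5 had 10 and 8 against 2 to 5, Wif1 8 and 7 against 1 to 4, Dkk3 10 and 8 against 1 to 7, and Wnt4 7 and 6 against 2 to 3. That cut left metacarpal I whole and took phalanges I from 38947 to 38243 peaks. Metacarpal III fell from 53276 to 43322 and metacarpal V from 38250 to 22441. Genes already higher in the thumb could hardly lose their order by it, so it is no separate support.

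Acvr2a, Cdh5, Foxa2, Rspo2, Runx2 and Tnc, 6 genes in all, had fewer called regions in both thumb lists, with all lines and at equal length, as did 223 of all 16176 genes (1.38%). Runx2, the transcription factor needed for hypertrophic cartilage and bone, had 3 and 3 called regions in the thumb, and 7, 6, 10 and 6 in phalanges III, phalanges V, metacarpal III and metacarpal V. Its region next to a gene end, chr17:44813687-44815573, was called in the phalanges of digits III and V alone, and the region within the gene at chr17:44617241-44620499 in all 6 lists. Foxa2, which acts with Foxa3 in hypertrophic chondrocytes, had 10 and 11 in the thumb and 17, 12, 22 and 13 in the other lists in the same order.

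A Foxa2 region 124 kb from the gene, chr2:148169767-148172968, was missing from both thumb lists and called in all 4 others, with a lowest percentile of 42.8 (phalanges V). In the foot it was called in all 4 lists of digits III and V and in neither great toe list. Of the 690 missing regions it was the only 1 with that foot pattern (0.145%), against 0.0706% of all regions, a share not matched for the number of hand lists. Acvr2a, a type II receptor for activins and BMPs, had 6 and 5 against 12, 7, 11 and 9, and Rspo2, a secreted enhancer of Wnt signalling in the same Wnt list as the genes above, 2 and 2 against 5, 3, 5 and 3. Cdh5, the cadherin of endothelial cells, had 8 and 9 against 15, 11, 17 and 14, and Tnc, the matrix protein tenascin C, 9 and 9 against 14, 12, 20 and 16. With peaks held to the common end point none of these 6 genes was lower in the thumb than in all 4 others. Since that cut removed peaks mainly from the other lists, it cannot decide whether the genes differ. Runx2 then had 3 and 3 against 4, 2, 6 and 0, and 0 of 286 list genes met the lower rule, where 0.0573% of all genes did, while 34 (11.9%) met the higher one, where 3.65% did. Over gene bodies and 10 kb flanks the mean difference of Acvr2a (1) and Foxa2 (0.25) turned positive and the other 4 genes no longer separated the groups.

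**Figure D3:**
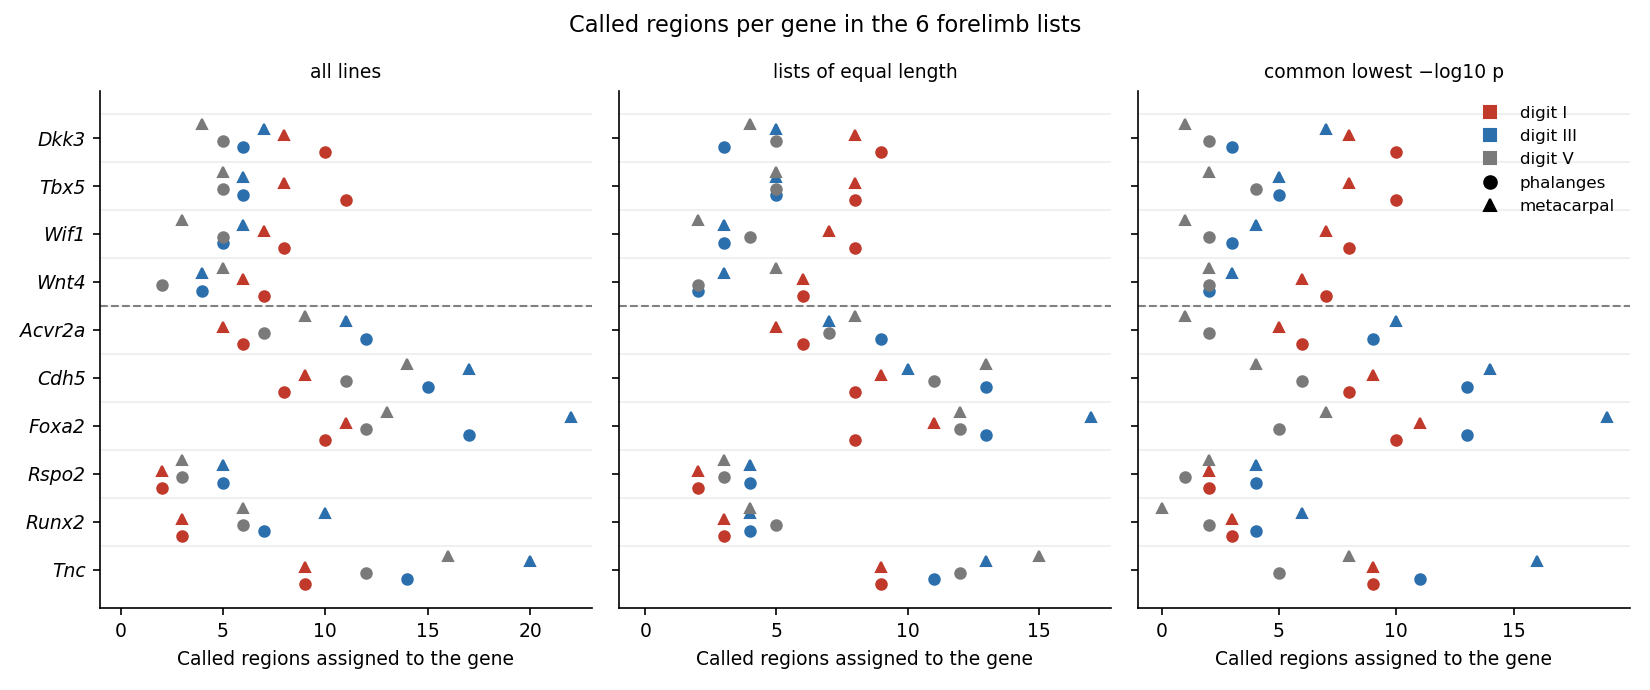
Called regions assigned to each of 10 genes in the 6 forelimb lists (colour, digit; circle, phalanges; triangle, metacarpal), with all lines, with lists of equal length and with a common lowest −log10 p of 49.6. Above the dashed line the red thumb symbols stay to the right of all others in each panel. Below it they lie to the left in the first and second panels and among the others in the last. The end point of the last panel is that of metacarpal I, so the cut removed peaks mainly from the lists of digits III and V.

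Most landmark genes of digit patterning did not separate the thumb. Gli3, the main transcriptional repressor of the hedgehog pathway in the limb, had 23 and 22 called regions in the thumb phalanges and metacarpal, within the 19 to 32 of the other lists. Hand2, a factor of the posterior limb, had 14 and 7 against 12 to 13, and Alx4, an anterior factor, had 6 and 1 against 1 to 5. Both differed by element in the thumb, with the higher count in the phalanges. Alx4 did so in the other digits too, with 5 in phalanges III against 3 in metacarpal III, and 4 against 1 in digit V. Hand2 had 13 and 12 in digit III and 12 and 12 in digit V. Shh, its target Ptch1 and Grem1, a BMP antagonist, overlapped between groups: Shh had 2 and 2 against 1 to 3 and Grem1 had 1 in every list. Hoxd10 and Hoxd12 had 1 region each in all 6 lists. A region was given to 1 gene, and that of Hoxd12, chr2:74665215-74685566, spans Hoxd13 and part of Hoxd11, which therefore had none of their own.

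Pax9, an anterior factor, had 6 and 6 called regions in the thumb against 5, 2, 10 and 3 in phalanges III, phalanges V, metacarpal III and metacarpal V, and it exceeded all others at equal length (6 and 6 against 2 to 5). Msx2, a homeobox factor of distal limb tissue, had 12 and 9 against 8 to 10, and 11 and 9 against 5 to 8 at equal length. Tbx3, a T-box gene expressed at the limb margins, had 11 called regions in the thumb phalanges against 7 and 8 in those of digits III and V, and 6 in the thumb metacarpal against 5 and 3. Sox9, the master factor of cartilage, had 13 and 10 against 7 to 16. Col10a1, the collagen of hypertrophic cartilage, had 2 and 2 against 0 to 3, and Gdf5, a ligand of joints and of brachydactyly in human, 2 and 2 against 1 to 2. Ihh had 1 region, called in all 6 lists.

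By gene list, patterning, Wnt, joint and brachydactyly genes had a larger mean share of called regions in the thumb, and none passed a test. Per 10000 called regions, the 38 anterior-posterior patterning genes had 77.1 and 75.2 in the thumb phalanges and metacarpal, and 72.4, 67.9, 74.6 and 65.2 in phalanges III, phalanges V, metacarpal III and metacarpal V (76.1 ± 1.34, n = 2 lists, against 70.0 ± 4.27, n = 4, exact permutation p = 0.222). The 32 Wnt genes had 46.8 ± 2.92 against 42.4 ± 2.01 (exact permutation p = 0.111). The 20 joint genes had 40.6 ± 0.638 against 35.0 ± 2.60 (exact permutation p = 0.111). Creb5, a factor of the forming joint in that list, had 23 and 23 called regions against 17, 8, 27 and 18, and 20 and 23 against 8 to 15 at equal length. The 23 brachydactyly genes had 51.9 ± 0.311 against 46.0 ± 2.85 (exact permutation p = 0.222).

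The digit I mean was higher in 14 of the 18 lists with all lines and in 16 at equal length, and all 290 list genes together had 394 per 10000 in the thumb against 362 (exact permutation p = 0.111). The groups did not overlap in 7 lists in each setting, each time with the thumb higher. Over 18 lists the smallest adjusted p (Benjamini-Hochberg) was 0.333 with all lines and 0.222 at equal length, and the lists share genes.

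Markers of other cell types gave mixed values beside these. Genes of blood and macrophages, 9 of 14 with a region, had 11.6 ± 0.543 per 10000 in the thumb and 8.59 ± 0.632 in the others (exact permutation p = 0.111), and neither thumb list was below 11.2 where the others ran from 7.70 to 9.09. Runx1, which also acts in cartilage, had 22 and 18 of these regions against 16, 13, 20 and 10, while Lyz2, Adgre1, Itgam, Tyrobp and Gata1 had none in any list. Skeletal muscle genes had 10.3 ± 0.415 against 10.3 ± 0.649. Mef2c, which is also in the hypertrophic list, held 20 to 28 of these regions per list. Myod1 had 0 and 0 called regions in the thumb against 2, 1, 1 and 0, and Myog 2 and 0 against 0, 1, 1 and 0. Endothelial genes had 14.8 ± 1.78 against 15.7 ± 0.551. The part of these cells in the results was not tested.

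Among the regions called only in digit I, 20 of 257 (7.78%) were assigned to 18 genes of the lists, where 3.89% of all union regions were, and 12 of them lay inside the gene. For matrix and growth these included Col9a1 (chr1:24250835-24252649), a collagen of cartilage, 0.996 kb from a gene end, and Igf2 (chr7:142650527-142652871), a growth factor, 0.931 kb from one. The Lef1 region at chr3:131155807-131158104 lay 0.661 kb downstream of a RefSeq start site of that Wnt transcription factor. Tgfb2 had one 41.0 kb from a gene end (chr1:186662807-186664838), and Runx1 had 3, the most of any gene. None of the 6 foot lists called the regions of Col9a1, Igf2, Lef1 or Tgfb2, and all 4 also met the rule at equal length. Of the 20 regions, 10 were called in no foot list, 5 in both great toe lists, and 15 met the rule at equal length. Of all 257, no foot list called 92 (35.8%).

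The 8 regions with the highest lower percentile, 38.3 to 50.9, that met the rule in both settings were assigned to St8sia4, Ldha, Tcfl5, Lrp1b, Hsd17b4, Copg2, Col3a1 and Hmgn1. Foot phalanges I called all 8, metatarsal I none, and the 4 foot lists of digits III and V called 0 to 3. The 2 great toe lists thus disagreed on these 8, while of all 257 regions they called 37.4% and 39.3%. Of the 8 missing regions chosen in the same way, foot phalanges I called 3 and metatarsal I 7, and the other foot lists 5 to 8. The regions of Ldha (lactate dehydrogenase A), Tcfl5, Copg2 and Hmgn1 lay within 1 kb of a gene end, and that of Col3a1, a fibrillar collagen, at chr1:45345834-45349083 inside the gene 2.25 kb from one.

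Among the regions missing only from digit I, 21 of 690 (3.04%) were assigned to 18 list genes, where 3.89% of all union regions were. Every one of the 21 was called in at least 1 foot list. Of all 690, just 24 (3.48%) were called in none, so this is no trait of the list genes. The 21 included Epha4 (chr1:77349255-77350628), a receptor of limb patterning, Irx5 (chr8:92189968-92191512), an Iroquois factor, and 2 regions 170 and 496 kb from Acvr2a. The growth plate genes Prkg2, the kinase downstream of natriuretic peptide signalling (chr5:98950509-98951717), and Pde4d, a phosphodiesterase mutated in a human acrodysostosis (chr13:108598488-108600251), had 1 each. Nog, a BMP antagonist, and Bmpr2, a BMP receptor, had 1 each with all lines alone. The most regions per gene were 4 at Cep128 and 4 at Gm15319, the latter with copies of identical promoter as given above, and 3 at Gja1, a connexin gene, and at other genes.

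With all lines, regions called only in digit I lay nearer to gene ends than regions called in any 2 of the 6 lists. Those missing only from it differed less from regions called in any 4. Those within 1 kb of a gene end made up 7.39% of those called only in digit I (95% Wilson interval 4.78 to 11.3, counting error only) and 6.81% of those missing only from it (5.16 to 8.94), against 3.78% of regions called in any 2 of the 6 lists, 5.13% of those in any 4 and 4.05% of those called only in digit III. The share over all regions was 18.5%, and over those in all 6 lists, which meet neither rule, 37.1%. The median distance to a gene end was 18.5 kb for regions called only in digit I and 34.9 kb for those missing from it. It was 34.5 kb for regions in any 2 lists, 29.4 kb in any 4, 32.4 kb for digit III only and 18.4 kb for all regions. At equal length the share within 1 kb was 6.43% for digit I only and 6.50% for digit III only. The median number of genes within 500 kb, with all lines, was 9 for regions called only in digit I, 6 for those missing from it and 8 for all regions. Of the missing regions with all lines, 10 (1.45%) were on chromosome Y, against 0.235% of all regions. On X there were 15 (2.17%), against 2.40% of all regions. At equal length 1 of the 363 missing regions was on Y and 7 were on X. On autosomes alone the count with all lines was 665.

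The foot lists, which the rule did not use, gave a separate measure of the same regions. Digit I bears fewer phalanges than the other digits, so in the foot phalanges too digit and element composition cannot be told apart. Of the 257 regions called only in the thumb, foot phalanges I called 37.4%, III 38.1% and V 27.2%, and metatarsal I called 39.3%, III 20.2% and V 15.6%. The great toe lists were highest in the metatarsals but not in the phalanges, and the mean was 38.3% in the great toe against 25.3% in foot digits III and V (difference 13.0 percentage points, exact permutation p = 0.222, adjusted 0.296). At equal length it was 38.5% against 29.3% (difference 9.20, exact permutation p = 0.111, adjusted 0.296), with foot phalanges I (41.0%) and metatarsal I (36.0%) each highest in their element. Of all union regions metatarsal I called 71.7% and metatarsal III 69.8%. Of regions called in any 2 of the 6 hand lists, with all lines, metatarsal I called 43.1%, III 39.9% and V 17.9%. Foot phalanges I called 24.7% of these, III 44.0% and V 27.7%. The 39.3% of metatarsal I was thus below its share of such regions, and the 20.2% of metatarsal III further below. At equal length these shares were 28.6% in metatarsal I and 32.5% in foot phalanges I.

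Of the 690 regions missing from the thumb, foot phalanges I called 41.4%, III 70.4% and V 55.7%, whereas the 3 metatarsal lists called 71.9% (I), 71.9% (III) and 52.5% (V). The great toe mean was 56.7% against 62.6% (difference -5.94, exact permutation p = 0.667, adjusted 0.667), and at equal length 45.9% against 60.7% (difference -14.9, exact permutation p = 0.222, adjusted 0.296). The adjustment (Benjamini-Hochberg) ran over these 4 comparisons. Foot phalanges I was also the lowest of the 3 foot phalanges lists for regions called in any 4 of the 6 hand lists. With all lines these were called at 49.9% (I), 80.7% (III) and 54.9% (V), and at equal length at 51.6%, 64.4% and 55.1%. The metatarsals called 80.2% (I), 75.2% (III) and 49.5% (V) of them with all lines. Separation in both limbs was rare: 4 of the 257 regions (1.56%) were called in both great toe lists and no other foot list, as were 0.203% of all regions. The reverse foot pattern was met by 1 of the 690 missing regions (0.145%) and by 0.0706% of all regions. Neither share over all regions is matched for the number of hand lists that call a region, so no excess can be read from them. No foot list called 92 of the 257 (35.8%) or 24 of the 690 (3.48%). By rule the former were called in 2 hand lists and the latter in 4. Regions in any 4 hand lists were called more often than those in any 2 by every foot list, for example 49.5% against 17.9% by metatarsal V. The 2 shares therefore cannot be compared as a trait of the digit.

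**Figure D4:**
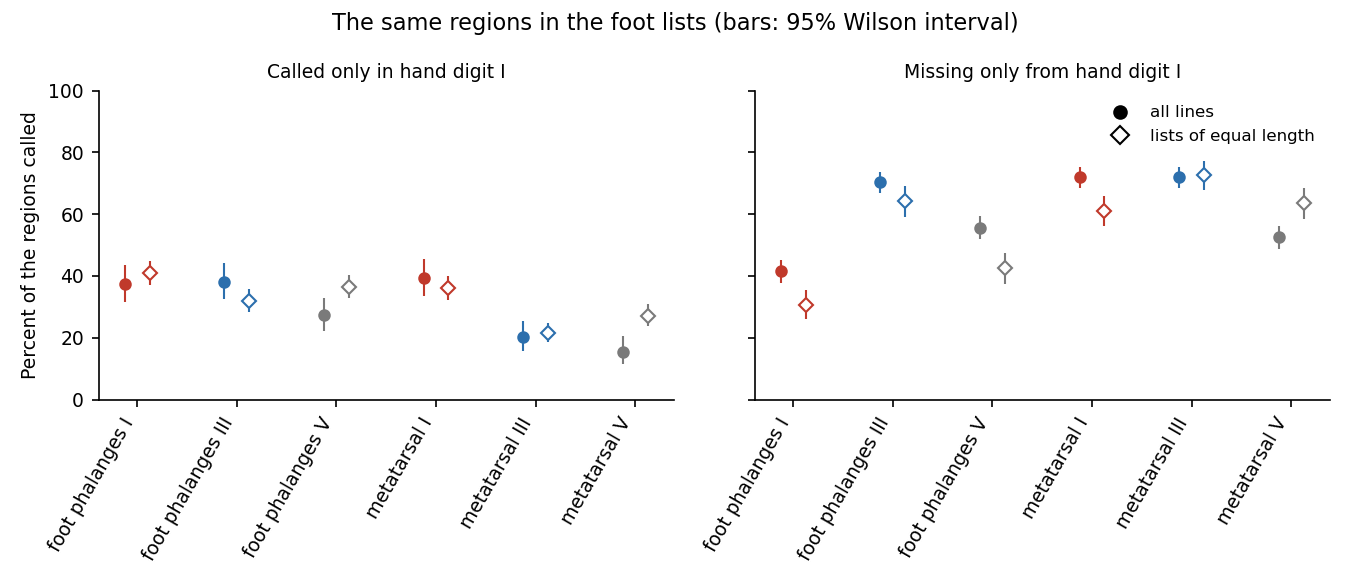
Percent of the regions called only in, or missing only from, hand digit I that each of the 6 foot lists called (filled circles, all lines; open diamonds, equal length; bars, 95% Wilson interval). Among the thumb-only regions metatarsal I, at 39.3%, lies above metatarsals III and V at 20.2% and 15.6%, and among the missing regions foot phalanges I, at 41.4%, lies below foot phalanges III and V at 70.4% and 55.7%. With all lines, regions called in any 4 of the 6 hand lists had the same order in the foot phalanges (I 49.9%, III 80.7%, V 54.9%). Those in any 2 were called at 43.1% (I), 39.9% (III) and 17.9% (V) in the metatarsals.

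The thumb metacarpal held fewer of the regions typical of metapodials than the other metacarpals. Regions were defined in foot digits III and V as metapodial-biased, called in both metatarsals and neither phalanges list, or phalanx-biased, the reverse, and then read in the hand. Of 1736 metapodial-biased regions at equal length, metacarpal I called 52.0%, III 73.5% and V 63.2%, while the phalanges called 27.3% (I), 32.3% (III) and 20.1% (V). Of 1964 phalanx-biased regions, metacarpal I called 25.2%, III 11.3% and V 13.4%, and the phalanges 54.9%, 46.0% and 52.6%. At equal length metacarpal I thus lay between the other metacarpals and the phalanges on both measures.

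With all lines metacarpal I called 33.4% of 1013 metapodial-biased regions, against 83.9% and 48.3%, but 12.6% of 3165 phalanx-biased regions, between the 28.1% of metacarpal III and the 8.82% of metacarpal V. The phalanx-biased order therefore rested on equal length. Metatarsal I, of the great toe, called 56.6% of the metapodial-biased and 36.3% of the phalanx-biased regions at equal length. With 1 list of metacarpal I against 2, no test was possible. The Jaccard index between phalanges and metacarpal of the same digit was 0.732 in the thumb, 0.690 in digit III and 0.687 in digit V with all lines, and 0.740, 0.741 and 0.689 at equal length.

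**Figure D5:**
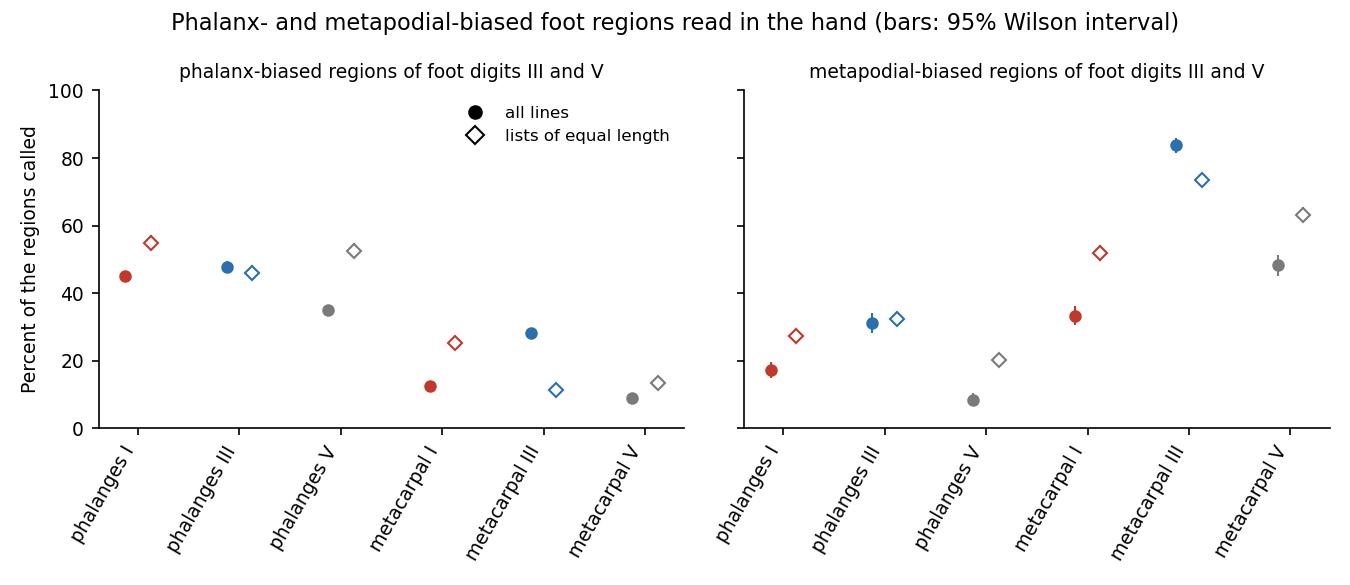
Percent of phalanx-biased and metapodial-biased regions, defined in foot digits III and V, that each of the 6 hand lists called (filled circles, all lines; open diamonds, equal length; bars, 95% Wilson interval). The open diamond of metacarpal I lies at 25.2% in the left panel, above those of metacarpals III and V (11.3% and 13.4%), and at 52.0% in the right panel, below theirs (73.5% and 63.2%).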

How the data were processed

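ATAC-seq peak lists of 12 groups of 3 libraries were analysed, 1 list per group. Bowtie2 2.3.4.1, Picard 2.9.0 and MACS3 are listed in the submitters' processing notes with the genome build mm10, but not the role of each. Trimming, filtering and the shift of cut sites are not given in the sources used here. Peak names in the deposited files say that libraries were pooled, the file names state a selection by reproducibility (IDR), and the depth per library is unknown. For each peak the deposited lists give a score, a fold enrichment ratio, a −log10 p and the summit's offset. The −log10 p set the order of peaks and the end points, and the offset the summit windows. The score and fold were not used.

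Union regions, calls and gene assignment were computed with Python 3.11.15, numpy 2.4.6, pandas 2.3.3 and scipy 1.17.1, after a test on simulated data. Gene positions and promoter sequences are RefSeq's for GRCm38.p6, with the coordinates of mm10. The start-site table lacked many genes (17491 of 21896 are in it), so the nearest gene end was used, and exons and introns are not told apart. A motif count in summit windows was planned and not run. The members and gene lists were chosen with earlier results of these data known. Named genes were chosen from 23 landmarks, up to 4 genes per list and direction with a member region in order of distance, the 8 members per direction with the highest lower percentile in both settings, up to 6 genes per direction with 2 or more regions, and list genes separated in both settings, and a selection of these is printed. The printed promoters, Creb5, Ptch1, Acan, Myod1 and the other cell type markers were named after their values were seen. Tests were exact permutations of digit labels within element, two-sided. Each p-value is the share of the 9 labellings with a difference of means at least as large as the observed one, and it holds no replicate error. Alternatives were lists of equal length, peaks covering 50% of their region, the top 50% of lines, 500 bp summit windows, autosomes, a 1 kb margin, the union of all 12 lists, genes with 10 kb flanks and leaving out each list. Added after the data were seen were the common end point, regions defined from 3 foot digits, and, for the foot comparison, each forelimb list left out, autosomes, the union of 12 lists and the common end point.
Intervals cover counting error only.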

Additional observations from a re-analysis of the deposited data

Results flagged for a closer look

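Among 44 groups of 4 values from the lists of digits III and V, 2 were flagged by a gap over range above Dixon's critical value. Chance flags about 1 in 20 by that rule, but this rate does not hold for tied whole numbers. The median number of genes within 500 kb of a peak was 10 in phalanges V and 9 in each of the other lists, so this flag rests on ties. The tendon and ligament genes had 10.8 called regions per 10000 in phalanges V, against 11.3 to 11.4 in the others, a small difference.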

How the results depend on the processing

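The 257 regions called only in digit I became 622 at equal length, 619 with 50% cover, 35 in the more significant 50% of each list and 888 at the common end point, and 282 to 1825 when 1 list was left out. The 690 missing regions became 363 at equal length, 263 in the more significant 50% and 19 at the common end point, and 816 to 1969 with 1 list left out (1969 without phalanges I, 1718 without phalanges V, 1356 without metacarpal I and 1316 without metacarpal V, since fewer lists then have to meet the rule); for the regions called only in digit I, leaving out phalanges I gave 820, metacarpal I 1825 and metacarpal III 588. Summit windows, autosomes, the 1 kb margin and the union of 12 lists kept both counts within 1.5 times. The differences in the foot kept their sign in all alternatives run, of which autosomes, the union of 12 lists and the common end point (19.0 and -3.95 percentage points) were added after the data were seen, with ranges over left-out lists of 8.66 to 14.0 and -8.37 to -1.05 percentage points. The Jaccard index within digit I exceeded the mean of digits III and V by 0.0434, and by 0.0250 at equal length, 0.0810 with 50% cover and 0.0760 in the more significant 50%. For metacarpal I minus the mean of III and V, the phalanx-biased difference of -5.88 turned to 12.8 at equal length and the metapodial-biased one of -32.7 became -16.4. List genes higher in the thumb numbered 4, then 27 at equal length and 34 at the common end point, and lower ones 11, then 6 at equal length, 6 with gene bodies and 10 kb flanks and 0 at the common end point. With gene bodies and flanks the mean difference turned to 1 for Acvr2a and 0.25 for Foxa2, and Wnt4 no longer separated the groups. Share differences per 10000 turned for tendon (0.144 at equal length, 0.677 with flanks, 1.08 at the common end point), nerve (0.469, 0.0124, 0.827), hypertrophic chondrocyte (0.928 with flanks, 0.628 at the common end point) and muscle genes (-0.227 with flanks); the cause was not tested. No paired analysis was possible because each list pools the 3 libraries that carry the replicate numbers. Depth per library is unknown, which limits every statement of absence.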
